A study of Bos taurus with 81 samples.

Results

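H3K4me3, the trimethylation of lysine 4 on histone H3, was compared between 8-cell embryos (8C) and morulae (MO) of cattle. The comparison rested on 4 of the 81 libraries of the series, 2 of each stage, and on the peaks of autosomes 1 to 29. Peaks are the stretches in which the authors called the mark. The 4 lists held 73056 and 91628 autosomal peaks at 8C and 27341 and 28326 at MO, that is 220351 of the 4930009 peaks in all lists of the series. Each autosome was divided into bins of 1 kb, and a bin was called marked in a library where peaks covered at least 50% of it. A bin was kept where both 8C and both MO lists marked it, lost where both 8C lists and neither MO list did, and gained where both MO lists and neither 8C list did. There were 27594 kept, 32341 lost and 8484 gained bins among the 138054 bins marked in at least 1 of the 4 lists, which makes 20%, 23.4% and 6.15% of those bins. Of the 2488046 autosomal bins they were 1.11%, 1.3% and 0.341%.

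The series profiled bovine oocytes and in vitro produced embryos by CUT&Tag, in which an antibody brings a transposase to a histone mark and the DNA around it is tagged, and by ATAC-seq, which tags open chromatin. Oocytes came from slaughterhouse ovaries, were matured and fertilized in vitro with thawed semen, and the embryos were cultured to 56 h after insemination for 8C and 122 h for MO, both as untreated controls. About 1000 to 1500 blastomeres were pooled for each library, so a library averages many embryos and all cells of the morula. H3K27ac, H3K27me3 and H3K9me3 each had 2 libraries of the same 2 stages. H3K4me3 libraries of the germinal vesicle oocyte (GV), the embryo of 2 and 4 cells (2C and 4C), 8-cell embryos cultured with 50 µg/ml of the transcription inhibitor α-amanitin (8A), the blastocyst (BL), its inner cell mass (ICM, freed by immunosurgery) and its trophectoderm (TE, cut off with a blade), and the 3 ATAC-seq libraries each of BL, ICM and TE, had no part in setting the classes.

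H3K4me3 is a mark of promoters that are active or poised, placed by the COMPASS family of methyltransferases and removed by KDM5 demethylases. In the oocytes of some mammals it also forms broad domains away from promoters. These are taken down as the embryo begins to transcribe its own genome, which in cattle happens mainly around the 8-cell stage. H3K27ac marks active promoters and enhancers, H3K27me3 is the Polycomb mark of silenced genes and can share promoters with H3K4me3, and H3K9me3 marks heterochromatin and silenced repeats.

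H3K4me3 covered less of the genome in both MO libraries than in either 8C library, in fewer and wider peaks. The peaks covered 68.6 and 112 Mb in 8C replicates 1 and 2, and 43.4 and 48.1 Mb in MO replicates 1 and 2. The stages did not overlap, yet the gap between the 8C libraries was larger than that between 8C replicate 1 and the MO libraries. The difference in mean log2 covered length was -0.94, against a pooled SD of 0.364 (n = 2 and 2), and the exact two-sided permutation p was 0.33, the smallest that 2 against 2 libraries can give. The median peak was 600 and 850 bp wide at 8C and 1250 and 1350 bp wide at MO. Nothing in the labels says that replicates came from separate collections of embryos, so their spread may be technical. The lists carry no read totals, so the sequencing depth is unknown, and a longer list cannot be told apart from a deeper library.

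The replicates agreed better at MO than at 8C. The MO pair had a Jaccard index of 0.767 (bases covered in both lists divided by those covered in at least 1), and the 8C pair one of 0.508. 8C replicate 2 stood apart with 117377 marked bins, against 68555 in replicate 1, 44676 in MO replicate 1 and 49552 in MO replicate 2. It marked 92.2% of the bins of replicate 1 and a further 54149 bins by itself, of which 89.0% were in neither MO list and 7.63% in both.

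**Figure D1:**
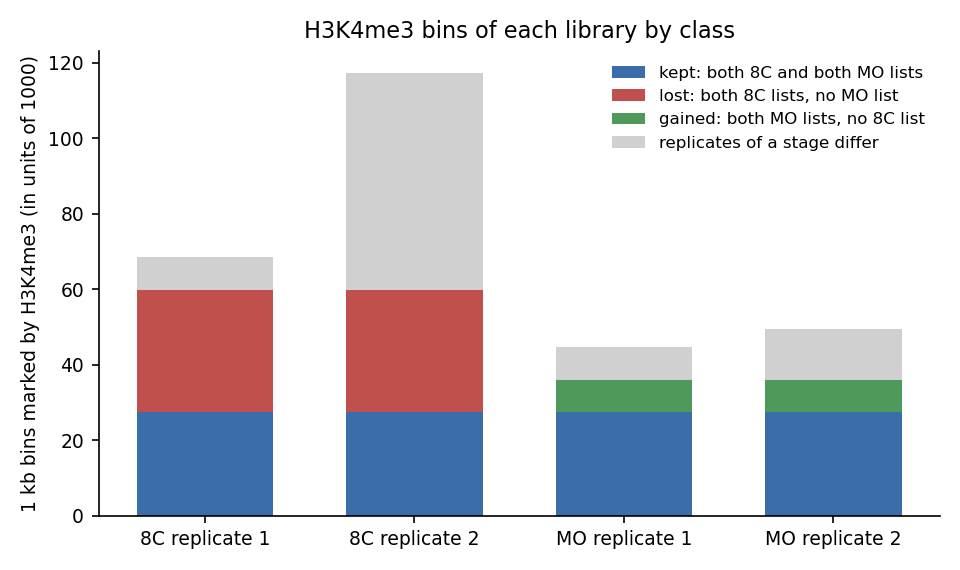
Marked 1 kb bins (vertical axis, in units of 1000) of each H3K4me3 library, stacked by class. The kept layer is the same 27594 bins in every bar, the 32341 lost bins outnumber the 8484 gained ones, and the grey layer is widest in 8C replicate 2.

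Of the 63228 bins marked in both 8C lists, 43.6% were kept, 51.1% were lost and 5.21% were marked in 1 MO list. Read from the other side, 67.3% of the 41005 bins marked in both MO lists had been marked in both 8C lists, 12.0% in 1 of them and 20.7% in neither. There were 3.81 lost bins for each gained bin. These shares depended on the 8C library. Of the bins of 8C replicate 1 alone, 41.4% were in both MO lists, and of those of replicate 2 alone, 27.03%. With replicate 1 as the only 8C library there were 28389 kept, 36626 lost and 12616 gained bins, and with replicate 2 as the only one 31726, 80546 and 9279. The excess of lost over gained bins also depended on the length of the lists. When each list was cut to its highest scoring peaks so that all 4 covered the same length, 18940 bins were kept, 11488 lost and 12325 gained, 58.7% of the 8C bins were kept, and 48.5% of the MO bins had been marked at 8C. The score is a whole number per peak given by the authors without a name, and it followed width closely (rank correlation over peaks 0.936 to 0.949 in the 4 lists), so this cut removed mainly narrow peaks: 15.01% of the peaks of 8C replicate 2 were left, 32.3% of those of replicate 1, 74.5% of those of MO replicate 2 and all of those of MO replicate 1.

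Peaks that stayed were wider than peaks that went. A peak was counted as kept where at least 50% of its length was covered in both lists of the other stage, and as lost where that held in neither. In 8C replicate 1 the 20104 kept peaks had a median width of 1250 bp and the 50026 lost peaks one of 550 bp. In 8C replicate 2 the 17696 kept peaks had a median of 1650 bp and the 71073 lost peaks one of 750 bp. Kept peaks were thus wider by 1.18 and 1.14 on the log2 scale in the 2 libraries. The MO lists showed the same order: the peaks carried over from 8C had medians of 1700 and 1800 bp, and those new at MO 750 and 850 bp, a difference of 1.18 and 1.08 on the log2 scale. Peaks of 1 library are not replicates, and 2 libraries a stage allow no test below 0.33, so these values are descriptions.

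The share kept did not simply increase with width. In 8C replicate 1 13.0% of the peaks under 500 bp were kept, 17.4% from 500 bp to 1 kb, 50.2% from 1 to 2 kb and 68.0% from 2 to 3 kb. It was lower again in the widest classes, with 64.0% from 3 to 5 kb and 54.9% of the 377 peaks of 5 kb or more. 8C replicate 2 had the same shape at a lower level, with 7.86% kept in the narrowest class, 50.3% from 2 to 3 kb and 31.1% of its 1248 peaks of 5 kb or more. Within the class of 1 to 2 kb, the share kept was also higher at higher scores, from 19.7% in score quartile 1 to 83.9% in quartile 4 in replicate 1 and from 5.29% to 64.0% in replicate 2. The median width was 1100 bp in quartile 1 and 1700 bp in quartile 4 of both replicates, so score and width were not separated within this class. In the lists cut to 1 covered length the width difference ended: kept peaks were wider by 0.28 on the log2 scale in 8C replicate 1, with medians of 1700 and 1400 bp, and narrower in replicate 2 (log2 -0.33, medians 2500 and 3150 bp). Among the highest scoring peaks, width no longer separated the classes in 1 direction.

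**Figure D2:**
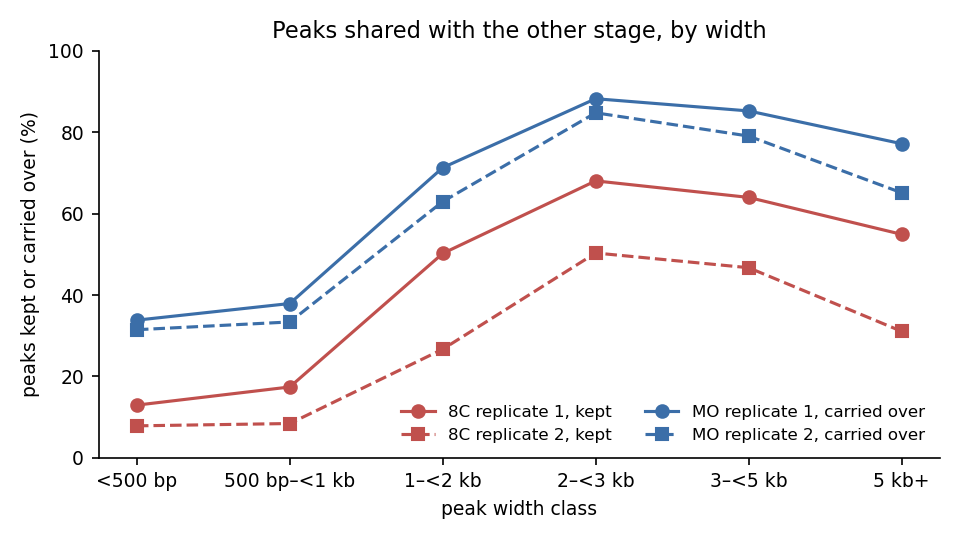
Share of peaks (vertical axis, percent) kept in both MO lists, for the 2 8C libraries, or carried over from both 8C lists, for the 2 MO libraries, by peak width. All 4 lines peak at 2 to 3 kb and fall at 5 kb and more.

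The widest 8C peaks that were lost lay mostly near the far ends of the chromosomes. Each autosome was cut into 10 equal segments, counted from the first base of the assembly, and this split was chosen after the values had been seen. Of the 8C peaks of 5 kb or more that were lost, 63.1% in replicate 1 and 65.2% in replicate 2 were in the last of them, the last 10% of the autosome. Of all 8C peaks of that width, kept or not, 38.5% in replicate 1 and 49.0% in replicate 2 lay there. Of the peaks of that width, 27.6% and 11.3% were kept in the last 10% and 72.0% and 50.2% in the rest. The lost wide peaks were covered by H3K27me3 over 88.9% and 83.7% of their length at MO, from 31.9% and 33.2% at 8C. The kept peaks of that width were covered over 39.0% and 29.6% at MO, from 9.37% and 8.18% at 8C. These traits were not particular to the widest class. Of the lost peaks of 3 to 5 kb, 65.9% and 56.1% lay in the last 10%. At MO H3K27me3 covered 86.5% and 77.3% of their length. In both replicates the share kept was lower in the last 10% in every width class.

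Where a site was present at both stages, its width changed little on balance. Overlapping peaks of the 4 lists were joined into sites. The 16770 sites with peaks in all 4 lists covered 36.1 and 43.4 Mb in the 8C libraries and 36.8 and 39.3 Mb in the MO libraries, so the ranges overlapped. Of these sites 33.0% were wider in both MO than in both 8C libraries, 29.6% were narrower, and the median change was 0.04 on the log2 scale. A further 27821 sites were in both 8C lists and no MO list and covered 27.3 and 40.2 Mb, while 4302 sites were in both MO lists and no 8C list. The other 49293 sites, in 1 list only or in an uneven set of lists, covered 5.20 and 28.8 Mb in the 8C libraries and 2.52 and 4.14 Mb in the MO libraries, and most of this length was in 8C replicate 2.

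The lost bins formed 19705 runs of adjacent bins, of which 18.1% touched a kept bin and 25.3% touched any bin marked in a MO list. The gained bins formed 6537 runs, of which 41.0% touched a kept bin and 56.0% a bin marked in an 8C list. The median lost bin was 28 bins from the nearest kept bin, and the median gained bin 4. Loss was mostly of separate islands, and gain lay more often at the border of H3K4me3 that was already there.

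H3K27ac, the mark of active promoters and enhancers, marked lost bins less often and gained bins more often in both MO libraries than in both 8C libraries. At all kept bins together it marked 60.6% and 59.0% in the 8C libraries and 60.0% and 59.8% in the MO libraries, ranges that overlap. By place the stages did not overlap. Kept bins in the last 10% of the autosomes had 42.2% to 44.7% at 8C and 53.0% to 55.5% at MO. Those elsewhere had 62.0% to 63.4% at 8C and 60.8% to 61.0% at MO. At lost bins the values were 25.5% and 24.2% at 8C and 7.04% and 7.37% at MO. At gained bins they were 22.4% and 20.0% at 8C and 72.7% and 71.4% at MO. The change in the mean was -17.6 percentage points at lost and 50.8 points at gained bins, beside a replicate SD of at most 1.73 points and a change of 0.779 points over all autosomal bins, where the mean was 3.86% at 8C and 4.64% at MO. In an exact two-sided permutation test both gave p = 0.33, the smallest possible here, and the kept bins p = 1, where the change in the mean was 0.111 points, or -4.33 points in the cut lists of equal covered length. Counted by bin, 45.5% of the gained bins also gained H3K27ac (absent in both 8C and present in both MO libraries), against 2.37% of all autosomal bins. Loss of H3K27ac was seen at 15.1% of the lost bins, against 1.53% of all bins, and H3K27ac persisted in all 4 libraries at 35.4% of the kept bins, against 0.793%. The kept bins were not the same acetylated bins throughout, since 10.8% of them lost and 10.5% gained the mark.

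H3K27me3, the Polycomb mark, had the opposite pattern and lay over most of the lost bins at MO. It marked 21.7% and 21.2% of the lost bins at 8C and 66.6% and 65.7% at MO. At kept bins it marked 3.42% and 3.25% at 8C and 16.5% and 16.3% at MO, and at gained bins 7.23% and 7.40% at 8C and 1.57% and 1.40% at MO. Over all autosomal bins the means were 5.56% and 6.28%. How far H3K27me3 lay together with H3K9me3 also differed between the stages, over the whole genome. With both libraries of a mark required, 3.73% of all autosomal bins had both marks at 8C. H3K27me3 without H3K9me3 or H3K27ac was on 0.573% of them. At MO these shares were 1.66% and 3.56%, so the H3K27me3 lists compared here were unlike in this respect. The stages did not overlap in any class (exact two-sided permutation p = 0.33 for each), and the change in the mean of 44.7 points at lost bins compares with replicate SDs of 0.341 and 0.684 points. Of the lost bins, 42.2% gained H3K27me3, against 3.75% of all autosomal bins, and 15.8% carried it in all 4 libraries, against 1.09%. Of the gained bins 5.26% lost it, against 2.98% of all bins.

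H3K9me3, the heterochromatin mark, differed less between the stages. It was found at 23.4% and 21.1% of the lost bins at 8C and at 25.4% and 30.9% at MO, a difference in the mean of 5.86 points beside SDs of 1.64 and 3.92 points. Over all autosomal bins its mean was 6.74% at 8C and 5.17% at MO, the opposite order. In the last 10% of the autosomes it marked 31.9% to 36.3% of the lost bins at 8C and 39.2% to 47.4% at MO. All bins there had means of 22.3% and 17.0%. Elsewhere H3K9me3 marked 10.6% to 10.9% of the lost bins at 8C and 11.8% to 14.8% at MO. All bins elsewhere had means of 5.01% and 3.86%. At kept bins it marked between 2.72% and 3.78% in the 4 libraries, with overlapping stages. At gained bins it marked 10.1% and 10.6% at 8C and 4.64% and 5.59% at MO. Exact two-sided permutation gave p = 0.33 for lost and gained and p = 1 for kept bins. Gain of H3K9me3 in both MO libraries was seen at 9.76% of the lost bins, against 2.56% of all bins, and loss at 7.70% of the gained bins, against 3.88%. H3K9me3 was in all 4 libraries at 11.9% of the lost bins, against 1.13%.

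**Figure D3:**
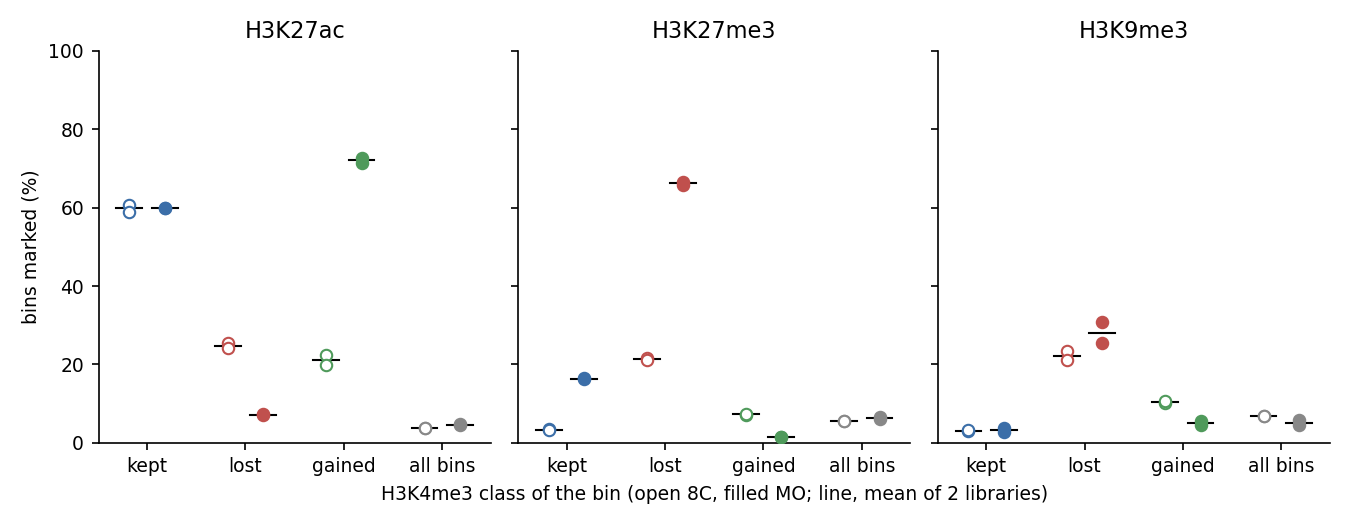
Percent of kept, lost, gained and all autosomal bins marked by H3K27ac, H3K27me3 and H3K9me3 in each library (open points 8C, filled points MO, lines the mean of 2). At lost bins the mean for H3K27me3 is 21.4% at 8C and 66.2% at MO, and at gained bins the mean for H3K27ac is 21.2% and 72.0%.

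Taken bin by bin, with a mark counted as present where both libraries of the stage had it and as absent otherwise, 60.6% of the lost bins had none of the 3 other marks at 8C and 31.8% had none at MO. H3K27me3 alone was on 2.54% of the lost bins at 8C and 39.5% at MO, and H3K27me3 together with H3K9me3, with or without H3K27ac, on 15.4% and 23.0%. H3K27ac alone was on 17.4% and 4.15%. Of the gained bins 76.4% had none of the 3 marks at 8C, and 64.0% had H3K27ac alone at MO. Of all autosomal bins 91.5% had none of the 3 at 8C and 89.0% at MO, more than in any class. H3K27ac alone was on 2.50% and 3.39% of all bins, and H3K27me3 alone on 0.573% and 3.56%. H3K27me3 together with H3K9me3 was on 3.73% and 1.66% of them. The kept bins were split at both stages between H3K27ac alone, 50.8% at 8C and 51.8% at MO, and none of the 3, 46.0% and 32.8%. H3K27me3 alone was on 0.631% of the kept bins at 8C and 11.8% at MO. Bins with H3K27ac and H3K27me3 together were at most 1.47% of any class. Over all autosomal bins they were 0.0418% at 8C and 0.0549% at MO, so every class lay above that level.

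The kept bins that acquired H3K27me3 formed a group of 3621, or 13.1% of the kept bins, against 3.75% of all autosomal bins. Bins with H3K4me3 and H3K27me3 together are often called bivalent, although in a pool of cells both marks need not lie in the same cell. H3K27ac marked 40.5% and 41.3% of these bins at 8C and 10.5% and 11.2% at MO. At the 21978 kept bins without H3K27me3 in any of the 4 libraries it marked 63.8% and 65.7% at 8C and 69.1% and 69.5% at MO. The bins that took up H3K27me3 had been marked by H3K4me3 at GV at 88.2% and 90.6%, against 65.9% and 71.1% of the others. At BL they kept H3K4me3 at 65.5% and 73.5%, against 91.4% and 93.1%, and in the ICM at 62.8% and 65.0%, against 89.3% and 89.5%. Every library put both groups of bins in that order, and the difference was not tested, since both groups come from the same libraries.

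Lost bins that acquired H3K27me3 and lost bins without it at 8C and MO also differed at 8C. H3K27me3 of other stages was not looked at. H3K27ac was at 18.9% and 20.1% of the 13641 lost bins that gained H3K27me3. It was at 44.7% and 46.3% of the 9060 lost bins with no H3K27me3 in any 8C or MO library. At MO it was left at 1.61% and 1.82% of the first and at 16.7% and 17.7% of the second. The groups also differed in place: the last of the equal segments of the autosomes held 56.8% of the first and 18.5% of the second. At 8C, H3K27ac marked on average 14.9% of all lost bins in that segment and 34.5% of those elsewhere. Place and H3K27me3 were not crossed, so whether place accounts for the difference in H3K27ac was not tested. H3K9me3 marked 86.3% and 91.7% of the 5118 lost bins with H3K27me3 at both stages at 8C, and 74.4% and 83.9% at MO. Over all 27165 autosomal bins with H3K27me3 at both stages the H3K9me3 values were about as high, 85.2% and 89.0% at 8C and 69.9% and 79.8% at MO.

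Libraries that had no part in the classes showed lost H3K4me3 as an early pattern that did not return. In GV the lost bins were marked at 75.1% and 81.8%, in 2C at 82.7% and 82.6%, and in 4C at 78.4% and 84.4%. The kept bins had 68.9% and 73.7%, 82.7% and 83.1%, and 82.2% and 84.3%, so in the 2C and 4C libraries lost and kept bins overlapped. After the morula they parted: BL marked 4.46% and 5.62% of the lost and 86.8% and 89.6% of the kept bins, ICM 2.46% and 2.66% of the lost and 84.5% and 85.1% of the kept, and TE 5.99% and 4.95% of the lost and 88.5% and 87.1% of the kept. Over all autosomal bins these later libraries marked 1.56% to 2.02%. Of the lost bins, 55.6% were marked in all 6 libraries of GV, 2C and 4C, and 90.5% in none of the 6 of BL, ICM and TE. Of the kept bins 55.4% were marked in all 6 early libraries, while of all autosomal bins 1.97% were, and 97.4% of all bins were marked in none of the 6 later libraries.

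Gained bins were marked far more often after the morula than before 8C. They were marked at 10.2% and 13.4% in GV, 7.52% and 8.63% in 2C and 5.80% and 7.24% in 4C, and at 60.0% and 63.0% in BL, 51.5% and 52.6% in ICM and 54.0% and 53.9% in TE. None of the 6 earlier libraries marked 75.8% of them, and all 6 later libraries marked 33.4%. Over all autosomal bins these shares were 89.9% and 1.17%. GV marked 5.82% and 7.47% of all bins, 2C 4.76% and 4.72%, and 4C 3.85% and 4.52%. The gained bins were thus above the genome level in each of these early libraries too. In the embryos grown with α-amanitin (8A) 1.59% and 0.92% of the gained bins were marked, against 2.36% and 1.98% of all bins. 8A marked 72.3% and 65.7% of the kept and 63.6% and 56.1% of the lost bins. The classes were set with the untreated 8-cell libraries, so a lower value in 8A than in 8C holds by their choice and is not a comparison of the treatment.

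**Figure D4:**
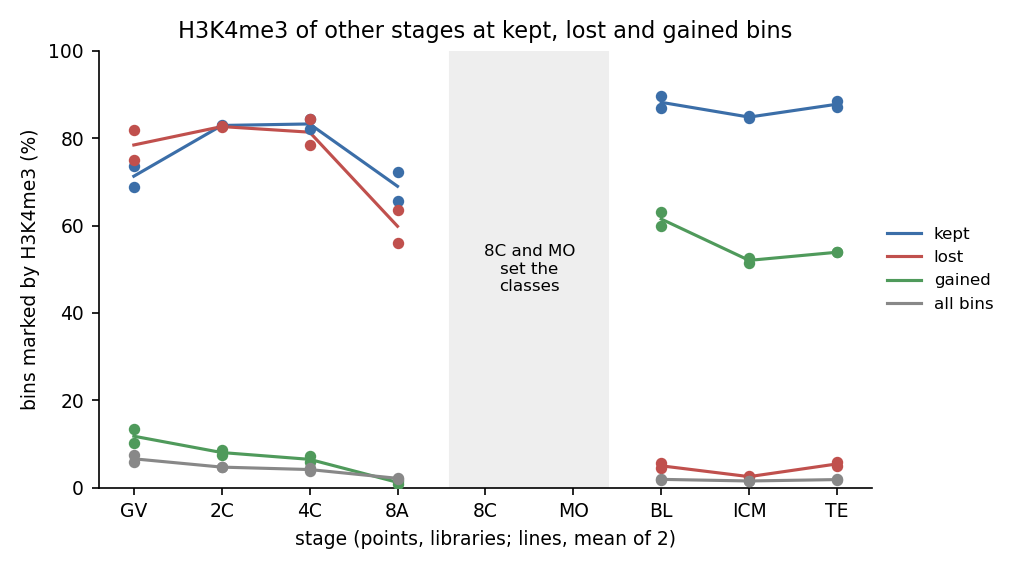
Percent of bins of each class marked by H3K4me3 (vertical axis) in the libraries of the other stages (points) with their means (lines). Lost and kept bins overlap at 2C and 4C, lost bins lie above kept ones at GV and below them in 8A, and after the morula lost bins stay at or below 5.99%.

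Open chromatin of the blastocyst followed the classes. In the 9 ATAC-seq libraries of BL, ICM and TE, 79.7% to 90.2% of the kept bins, 42.9% to 57.9% of the gained bins and 11.8% to 24.9% of the lost bins were in a peak, beside 2.84% to 4.43% of all bins. Lost bins were thus above the genome level in each of these libraries and below the gained ones.

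Gained bins with and without H3K27ac at MO took different courses. H3K4me3 was found in BL at 54.8% and 57.8% of the 5703 gained bins with H3K27ac in both MO libraries, and at 70.3% and 74.3% of the 1965 with it in neither. Open chromatin had the reverse order, with 54.9% to 71.2% of the first and 17.0% to 27.6% of the second in the BL libraries. Gained bins also differed by place. At the border of an 8C-marked bin (4697 bins) 72.0% and 74.6% were marked by H3K4me3 in BL and 58.0% and 60.1% by H3K27ac at MO. Away from it (3787 bins) the values were 45.1% and 48.6% for H3K4me3 and 87.9% and 88.3% for H3K27ac. Place and H3K27ac were not crossed, so whether place accounts for the difference in BL was not tested. Gained bins beside existing H3K4me3 were marked more often in BL, and those at separate places carried H3K27ac more often. These differences are larger than the gaps between replicate libraries and were not tested.

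The bins lost beside MO-marked H3K4me3 (7642) and those lost as islands (24699) differed in the same marks. H3K27ac marked 35.5% and 38.7% of the first and 20.7% and 21.4% of the second at 8C. H3K27me3 marked 54.0% and 55.0% of the first and 69.3% and 70.2% of the second at MO. In BL H3K4me3 was at 12.4% and 15.2% of the border bins and at 2.00% and 2.65% of the islands.

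Nearly as many bins were lost in the last 10% of the autosomes as in all the rest. The last 10% held 15972 lost bins, which is 49.4% of them, against 15.3% of the kept and 14.2% of the gained bins. That is 64.2 lost bins per Mb in the last 10% and 7.31 per Mb in the rest, while the kept bins had 16.9 and 10.4 per Mb. The share of 8C bins kept was 20.1% in the last 10% and 65.2% in segment 6, where it was highest. It was lower in the last 10% than in the rest on 29 of 29 autosomes, between 6.06% on chromosome 26 and 45.2% on chromosome 18. Without the last 10% of each autosome, an alternative added after seeing the data, 55.3% of the 8C bins were kept, with 23377 kept, 16369 lost and 7278 gained bins. In the cut lists of equal covered length the last 10% held 55.4% of the lost bins.

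Lost bins were densest close to the far end. Lost bins numbered 119 per Mb in the last 1 Mb of the autosomes, 142 in the next, 97.6 in the one after, 37.2 between 5 and 6 Mb and 15.3 between 10 and 11 Mb. The last 2 Mb held 23.4% of the lost and 5.68% of the kept bins, and 16.6% of their 8C bins were kept; in the first 2 Mb 38.2% were.

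The H3K4me3 libraries up to 8C had more of their bins in the last 10% than the later ones, which also exceeded the 10% of an even spread. Of all bins marked at GV, 2C, 4C, 8A and 8C, means of 26.4%, 32.0%, 33.4%, 39.6% and 32.6% lay there, and at MO, BL, ICM and TE means of 15.2%, 16.5%, 15.2% and 16.7%. H3K27me3 marked 20.0% of the bins of the last 10% at 8C and 28.6% at MO (SD 0.616 and 1.57, n = 2 and 2), against 3.95% and 3.799% in the rest. At the lost bins of the last 10% it marked 32.4% and 33.1% at 8C and 84.2% and 85.4% at MO, and at the lost bins elsewhere 10.2% and 10.4% at 8C and 47.6% and 48.3% at MO. H3K27me3 was thus higher at MO at the lost bins of both places. H3K27ac was lower in both, at 14.2% and 15.6% at 8C and 4.80% and 4.88% at MO in the last 10%, and at 33.9% and 35.1% at 8C and 9.22% and 9.81% at MO elsewhere.

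**Figure D5:**
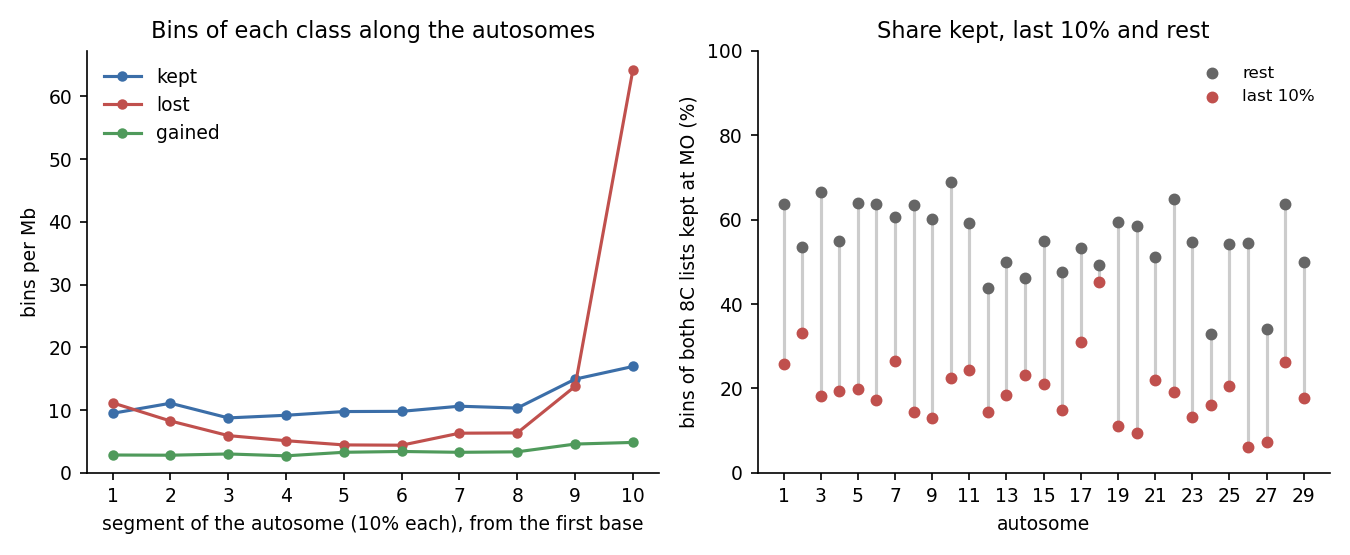
Left, kept, lost and gained bins per Mb in 10 equal segments of the autosomes from the first base; lost bins reach 64.2 per Mb in the last 10%. Right, share of 8C bins kept on each autosome in the last 10% and in the rest, where the last 10% is the lower value on all 29.

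The change differed between chromosomes. The share of 8C bins kept had a median of 42.9% over the 29 autosomes and ran from 29.04% on chromosome 24 and 29.2% on chromosome 27 to 58.2% on chromosome 7 and 62.3% on chromosome 10. The order was shared by the 8C libraries: of the bins of replicates 1 and 2 alone, 27.04% and 14.8% were kept on chromosome 24, 26.3% and 15.5% on chromosome 27, 56.2% and 40.0% on chromosome 7 and 59.6% and 41.2% on chromosome 10. Across the 29 autosomes the shares of the 2 libraries had a Pearson r of 0.97 (Spearman 0.94), as a description of points that share the MO lists. Chromosome 24 also had the largest difference in covered length, from 1.94 and 3.69 Mb at 8C to 0.749 and 0.837 Mb at MO, a log2 change of -1.76. Chromosome 10 had the smallest, from 2.09 and 3.19 Mb to 1.896 and 2.14 Mb (log2 -0.36), and it alone had overlapping stages; the other 28 had both 8C lists above both MO lists.

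Lost bins per Mb ranged from 5.27 on chromosome 1 to 32.3 on chromosome 25, and longer chromosomes had fewer per Mb (Pearson r -0.68, Spearman -0.69 over 29 autosomes, as a description). The share kept followed length less (Pearson r 0.36, Spearman 0.30). The share kept ran over 33.3 points between the lowest and the highest chromosome, and over 35.8 points without the last 10% of each.

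The longest runs of each class show what the counts are made of. They are given on the ARS-UCD1.2 build, and gene annotation was not used here because the table at hand is of another build. The longest kept run was chr18:61887001-61904000, 17 kb covered to at least 96.8% in each of the 4 lists, with H3K27ac over 86.2% and 86.2% of it at 8C and 75% and 62.9% at MO and no H3K27me3. The second, chr3:21309001-21321000 (12 kb), was an example of a kept region that acquired H3K27me3: H3K27ac covered 90.4% and 94.2% of it at 8C and 27.9% and 15.4% at MO, and H3K27me3 covered none of it at 8C and 73.3% and 63.3% at MO. The next, chr16:818001-830000 (12 kb), was covered to 96.2% or more by H3K27me3, H3K9me3 and ATAC-seq peaks alike in every library of 8C, MO or the blastocyst. It is a region that was called in every assay.

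The longest lost run was chr29:50050001-50080000, a 30 kb stretch covered to 93.3% and 98.3% at 8C and to 0 in both MO lists and in every BL, ICM and TE list. It had been covered to 78.5% or more in each GV, 2C and 4C list. H3K27me3 covered 16.0% and 20.0% of it at 8C and 78.0% and 48.0% at MO. The next runs in length lay close to the first base of their chromosomes, chr4:241001-265000 (24 kb) and chr2:76001-98000 (22 kb), and carried H3K27me3 and H3K9me3 at both stages. On chromosome 4 both marks covered all of the run in every 8C and MO library, while H3K27ac went from 66.5% and 55.8% to 0. That run was also the longest lost run that touched no bin marked at MO.

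The gained runs were shorter. The longest were chr2:131014001-131022000 and chr11:106558001-106566000 (8 kb each) and chr2:126712001-126719000 (7 kb). The first was covered to 5.62% and 3.12% at 8C, 91.2% and 94.4% at MO and 88.8% to 100% in BL, ICM and TE, and H3K27ac appeared over 78.1% and 74.4% of it from 0. The second had H3K27ac over 88.1% and 80.0% already at 8C and was covered by H3K4me3 to at most 45.6% later. The longest gained run away from 8C-marked bins was chr3:91673001-91680000 (7 kb), where H3K4me3 went from 0 to 95.7% and 100% and H3K27ac from 0 to 100% in both libraries, and H3K4me3 persisted at 77.9% or more in BL, ICM and TE. In the oocyte H3K4me3 had covered 33.6% and 30.7% of this run in the GV libraries, and it covered 0 at 2C and 4C.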

How the data were processed

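The deposited files are peak lists, 1 per library, with a chromosome, start, end and a score per peak. The score is a whole number that the authors deposited without a name, and it was used only to rank peaks within a list. The submitters' processing notes name the ARS-UCD1.2 build, BWA 0.7.9a, SAMtools 1.9, Picard 2.26.10 and SICER, and for trimming cutadapt 1.8.3 with Trim Galore 0.4.0. The lists are named for epic2, so the caller is not settled. The sources used here give no cutoff, control library or depth.

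Peak edges lie on a grid of 50 bp for H3K4me3 and H3K27ac and 200 bp for H3K27me3 and H3K9me3. Autosome lengths were taken from the highest peak end. Classes, widths, runs and shares were computed with Python 3.11.15, NumPy 2.4.6, pandas 2.3.3 and SciPy 1.17.1 and tested on simulated lists. Only stage differences in covered length and in other marks were tested, by exact two-sided permutation. Named regions were the 3 longest runs of each class, the longest runs away from the other stage's bins, and the chromosomes with the 2 highest and 2 lowest shares kept. Members, lists and comparisons were chosen with earlier results of these data known. Alternatives were other bin rules and sizes, lists cut by score, each library left out and same-numbered pairs. Peaks off autosomes 1 to 29 were left out.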

Additional observations from a re-analysis of the deposited data

How the results depend on the processing

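Of 254 recomputed values, 186 kept their direction where a test was run, stayed within the replicate spread where none was or, for counts, within 1.5 times; a kept direction does not mean a like size. The difference in covered length ran from -1.30 to -0.59 on the log2 scale when each library was left out in turn. The changes of H3K27ac and H3K27me3 at lost and gained bins kept their direction under every alternative tried, as did H3K27me3 at kept bins and H3K9me3 at lost and gained bins. Their size moved: H3K9me3 at lost bins went from 5.86 points to 3.40 without 8C replicate 1, 3.33 in pair 2 and 2.55 without the last 10%, and H3K27me3 at gained bins from -5.83 points to -3.43 without 8C replicate 2, -3.10 in pair 1, -2.67 in cut lists and -2.50 at 90%. The cause of the shifts below was not tested unless stated.

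With bins marked by any covered base there were 44329 kept and 60374 lost bins, and with bins marked at 90% there were 13155 and 13241. Bins of 2 kb are fewer by construction, with 12631 kept, 13726 lost and 3684 gained. The share of MO bins already marked at 8C was 72.1% by any base and 56.9% at 90%. In lists cut to the same covered length it was 48.5%, the share of 8C bins kept 58.7%, the lost bins 11488, the part of them in the last 10% 55.4%, and the width difference -0.027 on the log2 scale. Cutting to equal length leaves no difference in covered length, so none is given. Without the last 10% of each autosome 16369 bins were lost and 55.3% of 8C bins kept. The width difference was 1.04 with the upper 75% of peaks by score, 1.21 with peaks kept by their midpoint and 1.28 by any overlapping base.

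The small change of H3K27ac at kept bins turned negative by any base (-1.08 points), in bins of 2 kb (-2.16), in cut lists (-4.33) and without the last 10% (-1.82), and ran from -0.93 to 2.93 with 1 library left out. That of H3K9me3 at kept bins was -0.27 by any base, -0.072 where the other mark counted at any base, and -0.37 to 0.28 with 1 library left out. Gained bins marked at BL were 67.4% at 90%, 64.9% in bins of 2 kb, 71.1% in cut lists and 68.8% with the upper 75% of peaks. Lost bins marked at 4C were 86.2% by any base, 68.5% at 90%, 91.7% in cut lists and 76.1% without the last 10%. Lost bins beside MO-marked bins were 20.1% by any base, 20.8% in bins of 2 kb, 35.3% in cut lists, 20.5% with the upper 75% and 29.6% without the last 10%.

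Leaving out each H3K4me3 library of 8C and MO in turn gave 28389 to 31726 kept, 33590 to 80546 lost and 9279 to 13621 gained bins. The share of 8C bins kept ran from 27.03% to 46.9%, that of MO bins marked at 8C from 59.8% to 77.4%, the range over chromosomes from 26.4 to 35.0 points, the part of lost bins in the last 10% from 39.9% to 48.5% and the width difference from 1.11 to 1.18. Gained bins marked at BL ran from 51.7% to 66.4%, lost bins marked at 4C from 61.3% to 81.2% and lost bins beside MO-marked bins from 20.99% to 23.8%. The highest count of lost bins came without 8C replicate 1, and the highest count of gained bins, 13621, without MO replicate 1.

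The labels do not say whether same-numbered libraries of the 2 stages belong together. The difference between replicates 1 and 2 had a correlation of -0.063 between the stages over 210084 bins. That value cannot settle it, since the 8C difference is mostly the longer list of replicate 2. Used as a replicate block, same-numbered pairs gave the same log2 change of -0.94 in covered length, with an exact sign-flip p of 0.5. Classes within a pair gave 14960 gained bins in pair 1 and 14585 in pair 2, where 82410 were lost, 29.8% of 8C bins kept, 39.6% of lost bins in the last 10%, 28.4 points between chromosomes and a width difference of 1.09. With classes from a pair and both libraries of the other mark, the change of H3K27ac at kept bins was -0.39 points in pair 1. That of H3K9me3 was -0.53 in pair 2. Lost bins marked at 4C were 75.9% in pair 1 and 61.4% in pair 2, gained bins marked at BL 53.0% and lost bins beside MO-marked bins 20.4% in pair 2 of the replicate block.

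With 2 libraries a stage and no depth, no difference here passes a test. Lists were called separately in each library, so an unmarked bin is one without a called peak, and H3K4me3 below the authors' cutoff is not seen. 8C replicate 2 holds most of the bins on which the 8C libraries differ.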
